A study of Sus scrofa with 96 samples.

Results

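Vitamin D signalling and epithelial calcium transport were followed through 10 genes: the vitamin D hydroxylases CYP2R1, CYP27B1 and CYP24A1, the vitamin D receptor VDR, the calcium channels TRPV5 and TRPV6, the calcium-binding proteins CALB1 and S100G, the calcium pump ATP2B1 and the co-receptor klotho (KL). The genes were chosen by name from a fixed list. Of the 10, 8 have a row among the 25880 gene rows that were counted, and TRPV5 and KL are not analysed here. KL has no identifier in the name table used, and 14857 of the counted rows have a symbol, so a row of KL without a name is possible.

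The study compared pigs fed a semi-purified diet with 8% D-xylose, a pentose sugar, and pigs fed that diet without xylose. RNA was taken from kidney cortex, jejunum mucosa, liver and longissimus dorsi muscle, and the labels give 12 samples per tissue and diet. The labels give no genotype, breed or age for the animals, and no feeding time. QuantSeq, which reads only the 3′ ends of polyadenylated transcripts, was used to build the libraries.

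Of the 96 files, 90 carry in their name the title of a sample other than the one under which they are listed, and the title was followed. Following the listing instead would move 48 libraries to another tissue and 48 to another diet. Of the 96 libraries, 90 held 1000000 counts or more and were used: 24 from kidney (12 xylose, 12 control), 19 from jejunum (10 xylose, 9 control), 23 from liver (11 xylose, 12 control) and 24 from muscle (12 xylose, 12 control). Their totals ran from 1044588 to 6942566 counts. By title, 90 of the 90 libraries scored highest on the markers of their own tissue. The score was the mean log level of a marker list, less its median over the 90 libraries. Each lane of the sequencer held both diets of every tissue. In kidney, markers of the proximal tubule, thick ascending limb, distal convoluted tubule and collecting duct were present. Of the 5 collecting duct markers, AQP3, HSD11B2, SCNN1G and SCNN1B averaged 42.4 to 204 CPM (counts per 1000000 counts of a library) with counts in all 24 libraries, and AQP2 averaged 0.0865 CPM with a count in 5. Of the thick ascending limb markers, UMOD averaged 3675 CPM and KCNJ1 0.703 CPM, with a count in 17. The summed distal convoluted tubule markers had a median of 327 CPM in kidney and 382 CPM in muscle, so that sum is not particular to kidney. The design text names 24 animals, 12 per diet, and the labels do not link libraries to animals, so p-values measure the spread between libraries. Pieces of whole tissue were measured, so fewer cells of a type and less RNA per cell cannot be told apart.

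Vitamin D from the diet or the skin is inactive. It is hydroxylated first in the liver, where CYP2R1 is the main enzyme, and then by CYP27B1, above all in the proximal tubule of the kidney, to the hormone calcitriol. Calcitriol binds VDR, a nuclear receptor that pairs with retinoid X receptors, and CYP24A1, itself a classic VDR target, breaks the hormone down. In the duodenum and jejunum and in the distal nephron, calcium enters epithelial cells through TRPV6 or TRPV5, is carried across by the calbindins and leaves through plasma membrane pumps and sodium-calcium exchangers. S100G encodes the small calbindin of the mammalian intestine, and CALB1 the larger calbindin of the distal nephron. KL makes the receptors for the phosphate hormone FGF23.

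The 8 counted genes fell into a kidney set and a jejunum set. By mean CPM, CALB1, CYP24A1 and CYP27B1 were highest in kidney, and S100G, VDR, ATP2B1, CYP2R1 and TRPV6 were highest in jejunum. In the fit across tissues (edgeR's quasi-likelihood test with Benjamini-Hochberg adjustment), a gene was called at an adjusted p under 0.05 and at least a doubling. Of the 7 members tested, 3 were called higher and 4 lower in kidney than in jejunum, and TRPV6 was too low to pass the filter. These counts stand beside 24.1% of all 12266 tested genes called higher in kidney and 21.9% called lower.

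**Figure D1:**
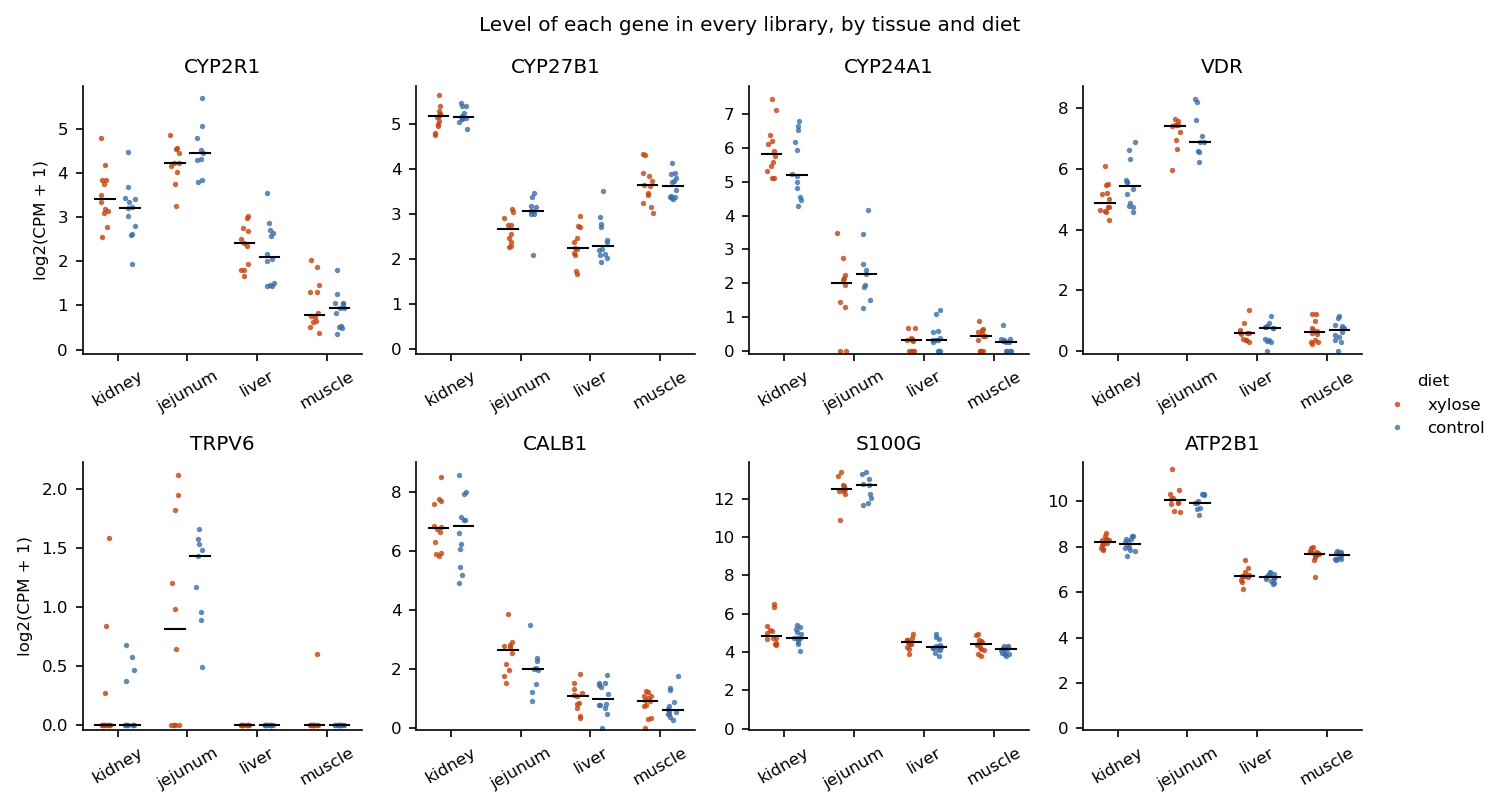
Level of the 8 counted genes in each of the 90 libraries, as log2(CPM + 1), by tissue, with xylose libraries in red left of control libraries in blue and a bar at each group's median; the vertical scale differs between panels. CALB1, CYP24A1 and CYP27B1 stand highest in kidney, and S100G, at 1902 CPM or more in jejunum, stands highest there.

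CYP2R1, the hydroxylase of the first step, was highest in jejunum, not in liver. It ran from 2.81 CPM through a median of 8.74 to 26.8 CPM in kidney, and from 8.45 through 18.8 to 51.0 CPM in jejunum. The 2 ranges overlapped. Its log2 fold change in kidney over jejunum was -1.36 ± 0.21 (SE), a fold of 2.57 lower in kidney (edgeR adjusted p = 2.15e-08). In liver the range was 1.71 to 10.7 CPM with a median of 4.07, and in muscle 0.281 to 3.07 CPM with a median of 0.840. All jejunum libraries stood above all muscle libraries.

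CYP27B1, which makes calcitriol, was the member with the tightest level in kidney. It ran from 25.8 through a median of 34.6 to 48.8 CPM there, a coefficient of variation of 15.1%. In jejunum it ran from 3.25 through 6.98 to 10.1 CPM. No kidney library overlapped with a jejunum library, and the log2 fold change in kidney over jejunum was 2.20 ± 0.14 (edgeR adjusted p = 1.16e-25). Liver libraries held 2.20 to 10.4 CPM, all below kidney, and the log2 fold change in kidney over liver was 2.09 ± 0.13 (edgeR adjusted p = 5.39e-27). Muscle was next to kidney in the order by CPM, at 7.18 to 19.1 CPM with a median of 11.5. In the fit kidney and muscle were not told apart (log2 fold change 0.13 ± 0.12, edgeR adjusted p = 0.334).

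CYP24A1, which degrades calcitriol, was 11.9-fold higher in kidney than in jejunum. It ran from 18.7 through a median of 50.1 to 176 CPM in kidney, and from 0 through 3.26 to 17.0 CPM in jejunum. The lowest kidney library thus stood just above the highest jejunum library. The log2 fold change was 3.57 ± 0.29 (edgeR adjusted p = 3.70e-20). In liver it averaged 0.307 ± 0.346 CPM and in muscle 0.252 ± 0.239 CPM (SD, n = 23 and 24), and these means differed by less than 1 SD.

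VDR, the receptor, was present in kidney and jejunum and near 0 in liver and muscle. In kidney it ran from 18.9 through a median of 35.0 to 118 CPM, and in jejunum from 61.3 through 147 to 318 CPM. The ranges overlapped, and the log2 fold change in kidney over jejunum was -2.21 ± 0.16, or 4.61-fold lower in kidney (edgeR adjusted p = 3.61e-22). Liver libraries held 0 to 1.55 CPM and muscle libraries 0 to 1.32 CPM. Every kidney and every jejunum library stood above every liver and muscle library, with a log2 fold change of 5.25 ± 0.23 for kidney over liver and 6.85 ± 0.23 for jejunum over muscle (edgeR adjusted p = 3.91e-38 and 2.94e-47).

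TRPV6, the entry channel of the intestine, was close to the limit of detection. In kidney 7 of 24 libraries had a count, 13 counts in all, and the highest library held 2 CPM. In jejunum 15 of 19 libraries had a count, 46 counts in all, and the highest held 3.36 CPM. The means were 0.199 ± 0.445 CPM in kidney and 1.30 ± 1.02 CPM in jejunum (SD), a difference of -1.10 CPM (two-sided permutation test with 100000 resamples, p = 4e-05, adjusted p = 0.00016 over the 4 single-gene tests made). Muscle had 2 counts in 1 library. No count was seen in 23 liver libraries, which allows a level of up to 0.0329 CPM over their summed counts (3 counts, counting error only). TRPV5 is a close relative of TRPV6 and overlaps it in the RefSeq gene table (assembly Sscrofa11.1, which may not be the build of the counts). The strand setting of the counting was not stated, so reads of TRPV5 could be among those of TRPV6, or be missing with them, and the TRPV6 values are uncertain.

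CALB1, the calbindin of the distal nephron, was 23.7-fold higher in kidney than in jejunum. It ran from 28.9 through a median of 110 to 383 CPM in kidney, the widest spread of the kidney set, and from 0.851 through 3.44 to 13.4 CPM in jejunum. The ranges did not overlap. The log2 fold change was 4.57 ± 0.26 (edgeR adjusted p = 2.75e-29), with 5.27 in lane 7 alone and 4.03 in lane 8 alone. Liver averaged 1.13 ± 0.697 CPM and muscle 0.796 ± 0.548 CPM (SD, n = 23 and 24), which differed by less than 1 SD. Jejunum was called above liver (log2 fold change 1.37 ± 0.30, edgeR adjusted p = 2.89e-05) and above muscle (1.39 ± 0.31, adjusted p = 3.60e-05), but in lane 7 alone these were 0.78 and 0.61 and neither was called (adjusted p = 0.0727 and 0.152).

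S100G, the intestinal calbindin, had the largest difference of the 7 tested members. It ran from 15.6 through a median of 25.7 to 90.03 CPM in kidney, and from 1902 through 5741 to 10865 CPM in jejunum. The lowest jejunum library was far above the highest kidney library, and the log2 fold change in kidney over jejunum was -7.92 ± 0.19 (edgeR adjusted p = 1.03e-56). Liver libraries held 12.9 to 30.1 CPM and muscle libraries 12.7 to 29.5 CPM, with medians of 19.5 and 17.2. In these 3 tissues every library had counts of the gene.

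ATP2B1, a plasma membrane pump that removes calcium from the cell, was high in all 4 tissues and highest in jejunum. In kidney it ran from 192 through a median of 289 to 388 CPM, and in jejunum from 673 through 1010 to 2801 CPM. The ranges did not overlap, and the log2 fold change in kidney over jejunum was -2.21 ± 0.10, or 4.62-fold lower in kidney (edgeR adjusted p = 1.18e-35). Liver was lowest, at 69.1 to 170 CPM, with all libraries below kidney. Muscle libraries held 100.0 to 252 CPM.

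In the comparison of kidney with jejunum, ranges without overlap were found for 3 members above (CALB1, CYP24A1 and CYP27B1) and 2 below (S100G and ATP2B1). Over all tested genes, 9.8% stood above jejunum without overlap and 5.12% below it.

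Against liver and muscle, how the libraries were scaled decided several calls. The fit used TMM scaling, which sets the bulk of genes equal between libraries, while CPM divides by the library total. A few transcripts filled much of the totals in those tissues: ALB, the main plasma protein, averaged 120801 CPM in liver, and ACTA1, skeletal actin, 195265 CPM in muscle. Scaling by totals moved the median log2 fold change of all genes by 0.26 for kidney over jejunum, 0.87 for kidney over liver, 1.41 for kidney over muscle, 0.61 for jejunum over liver and 1.16 for jejunum over muscle. With TMM scaling 2549 genes were called higher and 1776 lower in kidney than in liver, and with totals 6068 and 896. For kidney over muscle the counts were 3322 and 2217 with TMM and 8255 and 795 with totals. Jejunum over liver gave 3303 and 2840 with TMM and 5132 and 1882 with totals, and jejunum over muscle 3956 and 3258 with TMM and 6870 and 1734 with totals. For kidney over jejunum the split was 2952 and 2688 with TMM and 3597 and 2166 with totals.

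Relative to the bulk of genes, ATP2B1 was below muscle in kidney (log2 fold change -0.90 ± 0.10, edgeR adjusted p = 2.19e-14), but with totals it was above it, at 0.54. S100G showed -0.61 ± 0.15 for kidney over muscle (adjusted p = 0.000143) and -0.24 ± 0.15 for kidney over liver (adjusted p = 0.144) with TMM, and 0.83 and 0.66 with totals. CYP27B1 did not pass for kidney over muscle with TMM (0.13 ± 0.12, 95% interval -0.11 to 0.36, adjusted p = 0.334) and was called with totals, at 1.58. CYP2R1 showed 0.32 ± 0.21 for kidney over liver with TMM (interval -0.10 to 0.74, adjusted p = 0.177) and 1.20 with totals. The order of CYP27B1 between jejunum and liver turned with the scaling as well, from -0.12 ± 0.15 (adjusted p = 0.483) with TMM to 0.51 with totals. ATP2B1 was 0.59 ± 0.10 higher in kidney than in liver on the log2 scale with TMM, under a doubling, and 1.48 with totals. CYP27B1 in jejunum over muscle was -2.07 ± 0.14 with TMM and -0.88 with totals.

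The calls that held under both scalings were as follows. VDR, CALB1 and CYP24A1 were above liver and muscle in both kidney and jejunum. For CALB1 and CYP24A1 the jejunum calls set means of 4.40 and 4.27 CPM against 1.13 CPM or less, and both genes entered this fit through their kidney level, being too low for the fits within jejunum, liver or muscle. CYP27B1 was above liver in kidney, CYP2R1 above muscle in kidney, and CYP2R1, S100G and ATP2B1 above liver and muscle in jejunum. With TMM, 4 of 7 members were called higher and 0 lower in kidney than in liver, beside 20.8% of all tested genes higher and 14.5% lower. Kidney over muscle likewise gave 4 higher and 0 lower, beside 27.1% and 18.1%. Jejunum over liver gave 6 higher and 0 lower, beside 26.9% and 23.2%, and jejunum over muscle gave 6 higher and 1 lower, beside 32.3% and 26.6%. These comparisons share kidney or jejunum libraries.

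**Figure D2:**
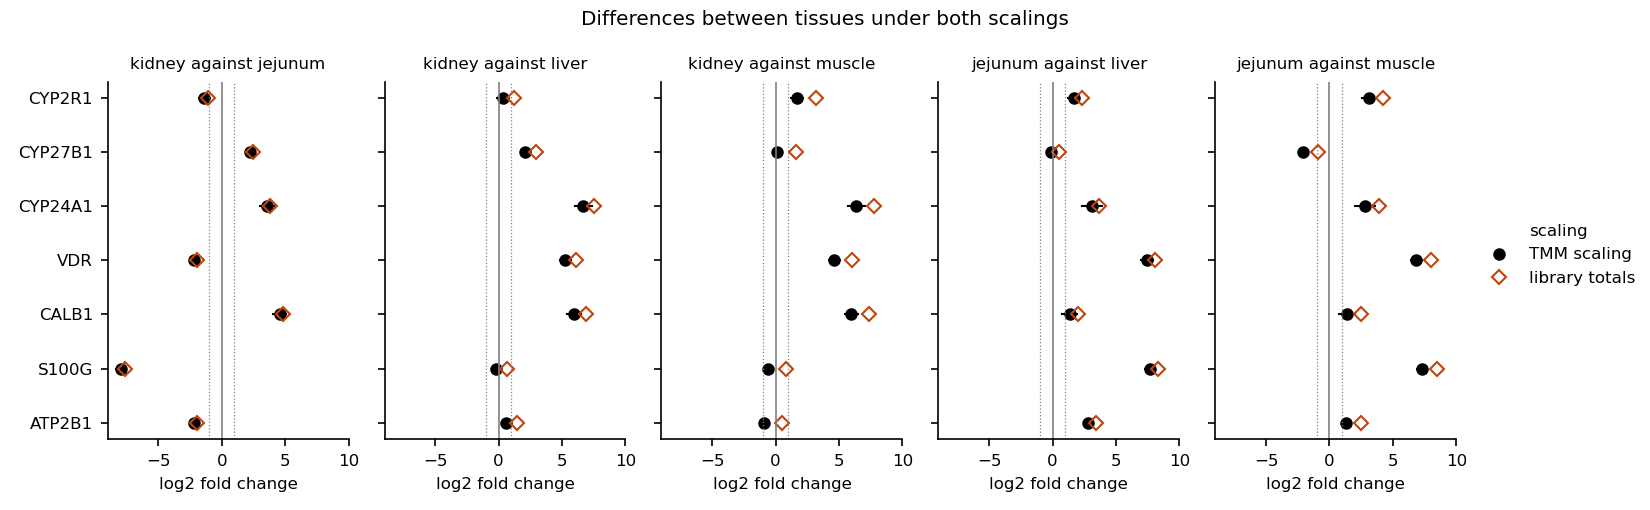
Log2 fold change of the 7 tested members in 5 pairs of tissues, the first-named tissue over the second, with 95% intervals for TMM scaling (black) and the value with scaling by library totals (open red); dotted lines mark a doubling. Both scalings agree closely for kidney against jejunum, while for kidney against muscle ATP2B1 stands at -0.90 with TMM and 0.54 with totals.

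Low counts of S100G, VDR, CALB1 and CYP24A1 outside their own tissue were set beside markers of that tissue. S100G stood at 0.512% of its jejunum mean in kidney, 0.320% in liver and 0.286% in muscle. Of the 4 enterocyte markers with a mean of 100 CPM or more in jejunum, the fatty acid binding protein FABP2 stood at 0.343%, 0.244% and 0.229% of its jejunum mean in the same 3 tissues, the retinol binding protein RBP2 at 0.463%, 0.239% and 0.234%, and the disaccharidase SI at 0.405%, 0.306% and 0.216%. The aminopeptidase ANPEP was higher outside jejunum, at 11.2%, 2.57% and 0.311%. VDR was at 0.362% of its jejunum mean in liver and 0.392% in muscle, against 27.1% in kidney. Of kidney markers with a mean of 100 CPM or more there (UMOD, SLC12A1, SLC22A8 and SLC34A1), the median level was 1.11% of the kidney mean in jejunum, 0.563% in liver and 0.472% in muscle. CALB1 stood at 3.20%, 0.819% and 0.579% of its kidney mean in those 3 tissues, and CYP24A1 at 6.94%, 0.5001% and 0.411%. CYP27B1 was further from such levels, at 18.3% in jejunum, 12.7% in liver and 33.6% in muscle.

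In kidney and liver the percentages of S100G were near those of FABP2, RBP2 and SI and below that of ANPEP. Of the enterocyte markers under 100 CPM, VIL1 stood at 7.17% of its jejunum mean in kidney and APOA4 at 35.9% in liver. CALB1 and CYP24A1 had percentages in liver and muscle close to those of kidney markers. CALB1 stood slightly above the highest of the 4 kidney markers there (0.737% in liver and 0.572% in muscle), and CYP24A1 did not. In jejunum both genes stood above the highest of the 4, 1.56%. The full enterocyte list (6 of 8 listed genes counted) summed to 275 to 1128 CPM in kidney, 6347 to 18568 CPM in jejunum, 104 to 287 CPM in liver and 19.2 to 73.6 CPM in muscle. In kidney most of the sum was ANPEP, which the proximal tubule is known to express, at 646 CPM. The kidney list (8 of 8 counted) summed to 2246 to 16675 CPM in kidney, 30.9 to 100.5 CPM in jejunum, 22.2 to 61.5 CPM in liver and 18.1 to 57.7 CPM in muscle.

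**Figure D3:**
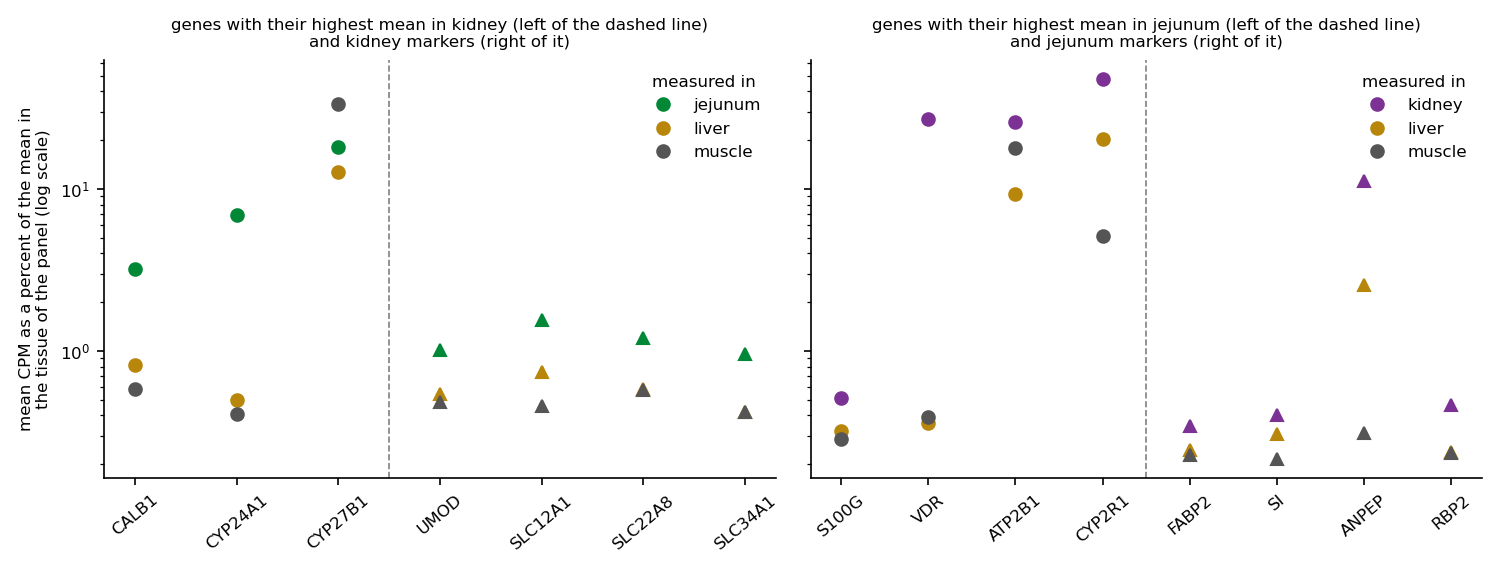
Mean CPM in the other tissues as a percent of the mean in the tissue of the panel, on a log scale, for members (circles) and tissue markers (triangles). S100G lies at 0.286% to 0.512%, near FABP2, RBP2 and SI, ANPEP lies higher in kidney and liver, and VDR in kidney lies at 27.1% of its jejunum mean.

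In kidney, S100G varied from library to library with 2 of the 6 counted enterocyte markers and not with their sum. In the 24 kidney libraries, S100G and FABP2 had Pearson's r = 0.77 and Spearman's rho = 0.72 on log2(CPM + 1) (permutation p = 2e-05 and 0.00012, adjusted p = 0.00128 and 0.00512 over the 64 correlations computed). Within lane 7 and lane 8, r was 0.89 and 0.87 (n = 12 each), and without the 2 libraries farthest in FABP2 it was 0.62. S100G and SI gave r = 0.67 and rho = 0.62 (permutation, adjusted p = 0.00747 and 0.0330). RBP2 had r = 0.51 and rho = 0.36 and did not pass after adjustment (adjusted p = 0.102 and 0.389). ANPEP, VIL1, APOA4 and the summed list did not pass either, with r of -0.33, 0.30, -0.04 and -0.26. The 2 kidney libraries highest in S100G were both from xylose pigs, at 90.03 and 81.5 CPM, and held 29.9 and 44.1 CPM of FABP2.

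In muscle, S100G and the summed enterocyte list had r = 0.62 and rho = 0.53 over 24 libraries (permutation, adjusted p = 0.0179 and 0.0816), so only r passed. Within the lanes r was 0.91 and 0.94 (n = 12 each), and without the 2 farthest libraries it was 0.45. In liver the pair gave r = -0.14. Of the 8 other pairs of VDR, CALB1 or CYP24A1 with another tissue's summed markers, none passed after adjustment, and r lay between -0.14 and 0.39. Whether transcripts from other tissues make up part of these low levels was not tested.

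Among the members themselves, few pairs varied together within a tissue. Of 21 pairs in kidney, 1 passed the adjusted threshold by both measures, VDR with CYP27B1 (r = 0.60, rho = 0.70, permutation, adjusted p = 0.0225 and 0.00512, n = 24). It had r = 0.87 in lane 7 and 0.47 in lane 8, and 0.63 without the 2 libraries farthest in VDR. Of 10 pairs in jejunum, 1 passed, VDR with CYP2R1 (r = 0.77, rho = 0.68, permutation, adjusted p = 0.0048 and 0.0330, n = 19), with 0.87 in lane 7 (n = 8) and 0.74 in lane 8 (n = 11). Many genes moved together in jejunum: 434 of 7865 genes had r of 0.7 or more with VDR there, and 408 had r of -0.7 or less. With CYP2R1 the counts were 205 and 149. CYP24A1, a VDR target, had r = 0.20 and rho = 0.09 with VDR in kidney. CALB1 had r of 0.00 with the summed distal convoluted tubule markers in kidney (SLC12A3, TRPM6, PVALB, KLHL3 and EGF). In that sum EGF and KLHL3 had the highest means, 148 and 97.0 CPM, against 29.4 CPM for SLC12A3. The 12 pairs of VDR, CYP24A1, CYP27B1 or CALB1 with the markers of 3 nephron segments gave none past adjustment. S100G and enterocyte markers in jejunum had r = 0.56 (permutation, adjusted p = 0.102), and r = 0.18 without the 2 farthest libraries.

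**Figure D4:**
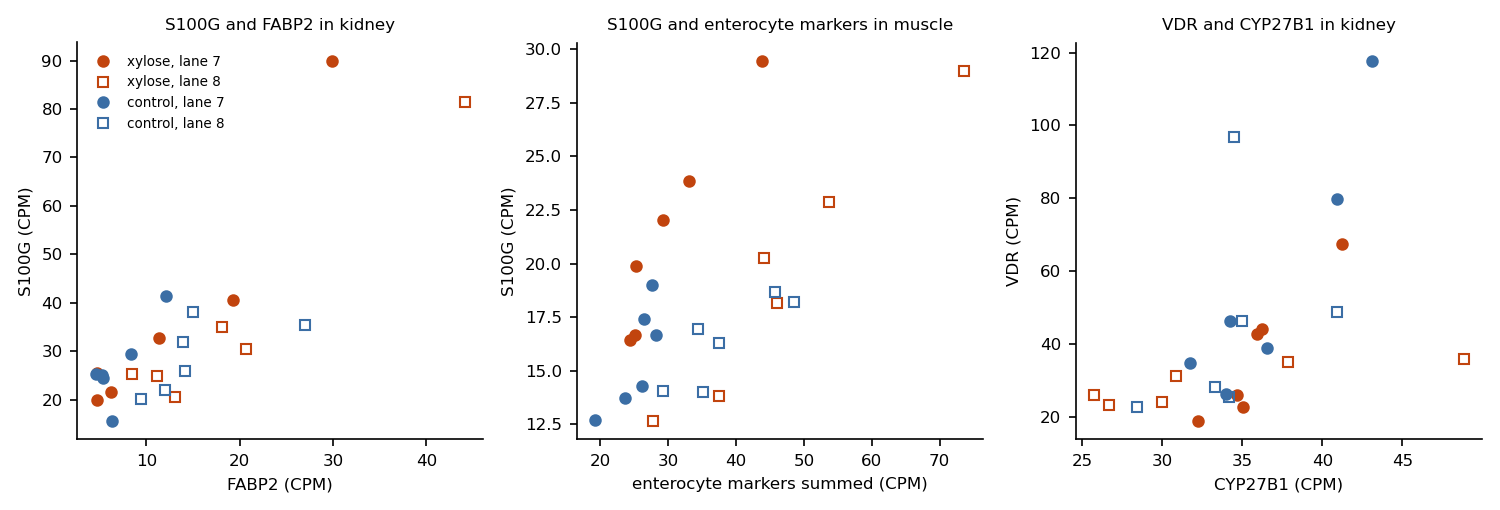
Pairs of levels in CPM, 1 point per library, by diet (red xylose, blue control) and lane (filled 7, open 8): S100G and FABP2 in kidney, S100G and summed enterocyte markers in muscle, and VDR and CYP27B1 in kidney. In kidney S100G is higher where FABP2 is higher, and the 2 kidney libraries above 80 CPM of S100G, at 81.5 and 90.03 CPM, are the highest in FABP2.

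The genes with the most similar pattern to each member, by Pearson's r over the libraries of the tissue of its highest mean, were as follows. In 24 kidney libraries CALB1 was most like TADA2A, SMAD7 and MMP15 (r = 0.74, 0.71 and 0.69), CYP27B1 most like CSTF2, SGSM2 and PDSS2 (0.75, 0.74 and 0.74), and CYP24A1 most like CXorf38, REL and VPS26C (0.65, 0.65 and 0.61). In 19 jejunum libraries VDR was most like MARVELD2, JUN and GRIPAP1 (r = 0.93, 0.93 and 0.91), and CYP2R1 most like C2orf68, RAB7A and WASHC4 (0.90, 0.89 and 0.89). S100G was most like SYVN1, TRIM38 and RPS15 there (0.88, 0.88 and 0.87), and ATP2B1 most like GLI3, OGT and KLHL18 (0.71, 0.70 and 0.67). These are descriptions of 8456 genes in kidney and 7865 in jejunum that share libraries and depth. Outside the rule of the highest mean, S100G was also compared in kidney. There it was most like TM4SF20, SPINK1 and KRT20 (r = 0.87 each), which stood at 0.425%, 0.371% and 0.379% of their jejunum means.

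No member was called between the diets in any tissue. The question was whether xylose in the feed altered these genes. No gene passed an adjusted p of 0.05 in edgeR's test in kidney, jejunum, liver or muscle, of 10128, 8867, 9194 and 8436 tested, and DESeq2 called 0, 0, 0 and 2. At an unadjusted p under 0.05 there were 720 genes in kidney (7.11%), 404 in jejunum (4.56%), 618 in liver (6.72%) and 620 in muscle (7.35%). Among members this held for 1 of 7 tested in kidney, 0 of 5 in jejunum, 0 of 4 in liver and 1 of 3 in muscle.

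VDR was the member in kidney. It ran from 18.9 through a median of 28.6 to 67.3 CPM in xylose kidneys, and from 22.7 through 42.6 to 118 CPM in control kidneys. The groups overlapped over most of their range. The log2 fold change of xylose over control was -0.58 ± 0.26 (95% interval -1.11 to -0.05, unadjusted p = 0.0321, edgeR adjusted p = 0.701), with -0.59 in either lane alone. Summed markers of the thick ascending limb had a median of 3299 CPM in xylose kidneys and 4040 CPM in control kidneys, and those of the proximal tubule 7470 and 8282 CPM. The medians were closer for the distal convoluted tubule (316.5 and 331.3 CPM) and the collecting duct (486.5 and 484.9 CPM). VDR and the thick ascending limb markers had r = 0.30 over 24 libraries (permutation, adjusted p = 0.429), with 0.02 in lane 7 and 0.82 in lane 8. VDR and the proximal tubule markers had r = -0.43 (permutation, adjusted p = 0.221), with -0.36 and -0.52 in the lanes. For VDR and the distal convoluted tubule markers r was -0.11 (permutation, adjusted p = 0.865), with 0.29 and -0.39 in the lanes. The part of these markers in the difference was not tested.

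The other kidney members were not called between diets. CYP24A1 averaged 70.7 ± 43.9 CPM in xylose kidneys and 52.2 ± 33.5 CPM in control kidneys (SD, n = 12 each), a log2 fold change of 0.50 ± 0.33 (interval -0.19 to 1.19, edgeR adjusted p = 0.786). CALB1 averaged 139 ± 90.7 and 136 ± 108 CPM in xylose and control kidneys, and CYP27B1 34.6 ± 6.34 and 35.6 ± 4.19 CPM. The interval of CYP27B1, -0.24 to 0.23, was the narrowest of the kidney members. CYP2R1 and ATP2B1 had log2 fold changes of 0.41 ± 0.29 and 0.13 ± 0.13 (edgeR adjusted p = 0.789 and 0.851). S100G averaged 37.3 ± 23.6 CPM in xylose kidneys and 27.9 ± 7.62 CPM in control kidneys, with a log2 fold change of 0.45 ± 0.25 (adjusted p = 0.734). Without the xylose library at 90.03 CPM, which also held the most markers of other tissues among kidney libraries, this was 0.23.

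In jejunum, S100G ran from 1902 through a median of 5729 to 10865 CPM in xylose libraries, and from 3297 through 6707 to 10698 CPM in control libraries. The log2 fold change was 0.00 ± 0.29 (interval -0.60 to 0.60, edgeR adjusted p = 0.9996). VDR averaged 151 ± 43.6 CPM in xylose and 160 ± 89.6 CPM in control libraries, and ATP2B1 1224 ± 597 and 1011 ± 218 CPM in xylose and control libraries. Their log2 fold changes were 0.09 ± 0.25 and 0.32 ± 0.21 (edgeR adjusted p = 0.983 and 0.954). For VDR the fitted direction was opposite to that of the means, and the value was -0.35 in lane 7 alone and 0.43 in lane 8 alone. CYP27B1 showed -0.35 ± 0.23 and CYP2R1 -0.27 ± 0.25, both with an adjusted p of 0.954. CYP24A1, CALB1 and TRPV6 were too low for the fit. They averaged 3.23, 5.27 and 1.16 CPM in xylose libraries and 5.42, 3.43 and 1.45 CPM in control libraries, and two-sided exact permutation tests gave p = 0.274, 0.217 and 0.555.

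In muscle S100G was the member with an unadjusted p under 0.05. It ran from 12.7 through a median of 20.1 to 29.5 CPM in xylose muscle, and from 12.7 through 16.5 to 19.0 CPM in control muscle. The log2 fold change was 0.31 ± 0.14 (unadjusted p = 0.0324, edgeR adjusted p = 0.617), with 0.29 in lane 7 and 0.33 in lane 8. The summed enterocyte markers of these libraries ran from 24.4 through 35.3 to 73.6 CPM in xylose muscle, and from 19.2 through 28.7 to 48.5 CPM in control muscle. Their part in the difference was not tested. In muscle the log2 fold change was -0.02 for CYP27B1 and -0.01 for ATP2B1, and in liver the 4 tested members lay between -0.20 and 0.17.

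The diet effect was not shown to differ between kidney and jejunum for any member. Over all 12266 genes, 0 passed the adjusted threshold and 451 (3.68%) had an unadjusted p under 0.05. CYP24A1 stood at 1.16 ± 0.55 (kidney minus jejunum, unadjusted p = 0.0368, edgeR adjusted p = 1). It entered this fit through its kidney level and was too low for the fit within jejunum, so its jejunum side rests on 0 to 39 counts per library. VDR stood at -0.65 ± 0.33 (unadjusted p = 0.0489).

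**Figure D5:**
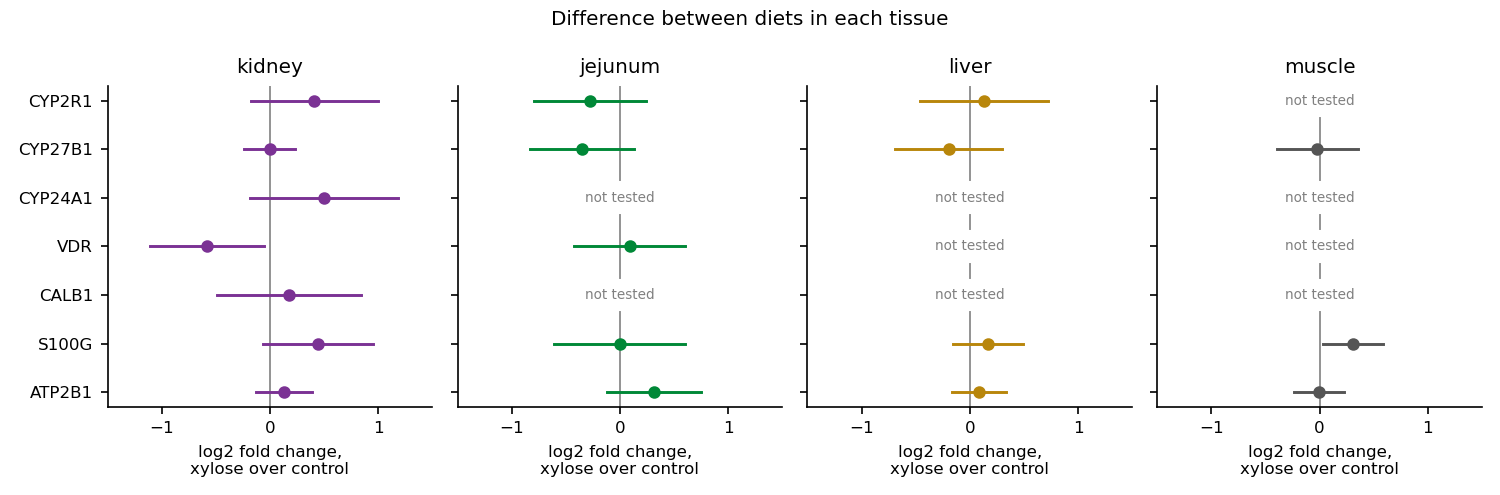
Log2 fold change of xylose over control with 95% intervals for the 7 members tested in at least 1 tissue; members too low for the filter are marked as not tested. The intervals of VDR in kidney (-1.11 to -0.05) and S100G in muscle (0.03 to 0.59) leave out 0, and neither passes adjustment over all genes.

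The diets rest on the titles. With the diets of the GEO record, under which diet and lane cannot be told apart, 887 genes were called in jejunum, 281 in muscle, 2 in kidney and 1 in liver. No member was among them. The smallest member p-values were then those of CALB1 in kidney (log2 fold change -1.03, edgeR adjusted p = 0.390) and CYP27B1 in muscle (0.52, adjusted p = 0.0855), each with the opposite sign to that by title.

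Other genes of the pathway were read from 9 lists of 62 entries, of which 55 were counted and 51 tested between kidney and jejunum. Of these, 22 were called higher and 11 lower in kidney, beside 24.1% and 21.9% of all tested genes, and the median log2 fold change was 0.56, beside 0.00 over all genes. None of the 33 called genes changed sign under the 3 scalings. Of the 22 higher genes, 7 (LRP2, CUBN, SLC34A1, UMOD, CLDN16, CLDN19 and EGF) are also in the lists of kidney markers, so their direction was known. SLC8A3 and CLDN14 averaged under 1 CPM in both tissues, and without them 21 of 49 were higher and 10 lower.

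Genes that bind and take up vitamin D in the nephron were higher in kidney: 4 of 5 rose and 0 fell, with a median log2 fold change of 2.47. LRP2 (megalin) averaged 3450 ± 1162 CPM in kidney and 37.7 ± 15.5 CPM in jejunum (SD), a log2 fold change of 6.29 ± 0.20 (edgeR adjusted p = 1.87e-47). Its partner CUBN (cubilin) and the adaptor DAB2 followed, at 3.56 ± 0.27 and 2.32 ± 0.15. GC, the plasma carrier of vitamin D, averaged 47.6 CPM in kidney and 38.7 CPM in jejunum and did not pass (0.08 ± 0.20), and stood at 3052 CPM in liver, its known source.

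Of the other vitamin D enzymes, 2 of 6 were counted. DHCR7, which removes the vitamin D precursor, fell (-1.22 ± 0.19, edgeR adjusted p = 7.42e-09), though by less than a doubling with totals (-0.96). CYP27A1, a mitochondrial hydroxylase, averaged 29.6 ± 11.0 CPM in kidney and 25.1 ± 9.88 CPM in jejunum, against 302 ± 65.4 CPM in liver.

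Among 10 partners of VDR, 0 rose and 3 fell in kidney, with a median of -0.49. RXRG, a retinoid X receptor, fell most (-4.42 ± 0.35), with 0.268 CPM in kidney and 4.94 CPM in jejunum. The coactivator NCOA1 averaged 40.2 ± 11.2 CPM in kidney and 146 ± 44.9 CPM in jejunum (-2.11 ± 0.13), and the corepressor NCOR1 fell as well (-1.11 ± 0.18), but by less than a doubling with totals (-0.85). RXRA, a common partner of VDR, averaged 181 CPM in kidney and 238 CPM in jejunum, a log2 fold change of -0.66 ± 0.11, under a doubling.

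Of the other calcium exporters, 3 of 5 tested rose and 1 fell, with a median of 1.54. SLC8A1, a sodium-calcium exchanger, averaged 82.1 ± 25.4 CPM in kidney and 8.48 ± 4.91 CPM in jejunum (3.07 ± 0.17, edgeR adjusted p = 6.77e-30). The pumps ATP2B4 (1.89 ± 0.16) and ATP2B3 (1.54 ± 0.31) rose, opposite in direction to ATP2B1. The exchanger called lower, SLC8A3, had 8 counts in all kidney libraries and 12 in all jejunum libraries, and passed the filter through muscle, at 6.02 CPM. Without it 3 of 4 rose and 0 fell, with a median of 1.71.

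Claudins are proteins of the tight junctions between cells. Of the 7 listed, 6 were counted and 5 tested, and CLDN12 and CLDN15 were not among those tested. All 5 tested claudins were called higher in kidney, with a median of 3.46. CLDN10, CLDN19 and CLDN16, claudins of the thick ascending limb, had log2 fold changes of 6.17 ± 0.26, 5.95 ± 0.25 and 3.46 ± 0.35. CLDN2, of the proximal tubule, averaged 1163 ± 528 CPM in kidney and 427 ± 228 CPM in jejunum. CLDN14 had 25 counts in all kidney libraries and 1 in all jejunum libraries and passed the filter through liver, at 4.50 CPM. Without it 4 of 4 were higher, with a median of 4.71.

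Of 7 receptors for calcium and phosphate hormones, 4 rose and 3 fell. PTH1R, the parathyroid hormone receptor, averaged 514 ± 225 CPM in kidney and 6.49 ± 3.03 CPM in jejunum (6.07 ± 0.22, edgeR adjusted p = 2.31e-44). The calcium-sensing receptor CASR (4.61 ± 0.32) and the FGF receptor FGFR1 (3.92 ± 0.22), with which klotho binds FGF23, rose too. CALCR, the calcitonin receptor (-3.68 ± 0.38), KLB, which is beta-klotho (-2.48 ± 0.29), and FGFR3 (-1.02 ± 0.19) fell, FGFR3 by less than a doubling with totals (-0.75).

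The phosphate list had 1 of 4 tested genes higher and 0 lower: SLC34A1, the phosphate carrier of the proximal tubule, at 1756 ± 526 CPM in kidney and 16.7 ± 7.92 CPM in jejunum. In the magnesium list 3 of 7 rose and 1 fell. EGF, which stimulates TRPM6, averaged 148 ± 41.2 CPM in kidney and 3.92 ± 1.88 CPM in jejunum, and CNNM2 (4.27 ± 0.28) and SLC41A1 (2.46 ± 0.14) rose with it, while CNNM4 fell (-1.45 ± 0.26). TRPM6, the magnesium channel, averaged 31.1 ± 12.7 CPM in kidney and 38.1 ± 23.8 CPM in jejunum, under a doubling. Of 6 genes known to act on TRPV5 or TRPV6, KLK1 (6.86 ± 0.28) and UMOD (6.36 ± 0.21) rose and ANXA2 (-2.27 ± 0.17) and SGK1 (-1.39 ± 0.17) fell.

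Diet called none of these pathway genes: 0 of 44 tested in kidney, 37 in jejunum, 35 in liver and 34 in muscle, with 4, 2, 1 and 3 at an unadjusted p under 0.05, beside 7.11%, 4.56%, 6.72% and 7.35% of all genes. In kidney the smallest p was that of AMN, which anchors cubilin, at 51.7 CPM in xylose and 82.8 CPM in control kidneys (log2 fold change -0.63 ± 0.20, edgeR adjusted p = 0.653). In the other tissues these were UMOD in jejunum (0.53 ± 0.19, adjusted p = 0.954), PTH1R in liver (-0.46 ± 0.20, adjusted p = 0.720) and GC in muscle (0.90 ± 0.36, adjusted p = 0.614). UMOD is a kidney marker, at 42.6 ± 14.2 CPM in xylose and 31.2 ± 9.80 CPM in control jejunum (SD). GC ran from 11.4 through a median of 17.6 to 171.6 CPM in xylose muscle, and from 11.2 through 14.9 to 22.3 CPM in control muscle. The library at 171.6 CPM, xylose 7, also held the most markers of other tissues among muscle libraries (0.391% of its counts, against a median of 0.0819%). Without it the log2 fold change of GC was 0.26 ± 0.17 (unadjusted p = 0.139, edgeR adjusted p = 0.538).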

How the data were processed

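RNA was measured in 96 libraries. The authors deposited raw read counts for 25880 Ensembl gene identifiers in each library. STAR and featureCounts are named, with no version, in the submitters' processing notes. Genome build, annotation and strand setting were not given in the sources used here, so no coordinates or sequences are printed. A name table gave 14857 identifiers a symbol.

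Files were assigned by the title in their names, and 6 libraries under 1000000 counts were left out (5 jejunum, 1 liver). Levels are CPM over all gene rows, without further scaling. Tests used edgeR 4.0.16 in R 4.3.3 (TMM, filterByExpr, quasi-likelihood F test, Benjamini-Hochberg over all genes tested), with lane as a term. Diet was fitted within each tissue, and tissues in 1 model of all tissues averaged over diets. Standard errors come from the log2 fold change and its F statistic. A tissue call needs an adjusted p under 0.05 and a log2 fold change of at least 1 from 0. DESeq2 1.42.0 was an alternative. The fitting steps were tested on simulated data. Correlations used log2(CPM + 1) for members with a mean of 5 CPM or more in the tissue, and 100000 resamples. Named were all members, up to 3 called genes per direction and pathway list, and the 3 genes most like each member with a mean of 5 CPM or more. For diet only the pathway gene with the smallest p in each tissue was named, and pathway genes outside this rule (GC, CYP27A1, RXRA, TRPM6, CLDN2 and CLDN14) were chosen after their values were seen. The genes most like S100G in kidney were also named outside the rule. The members, lists and tests were chosen with earlier results of these data known. Read counts have no molecular identifiers described, so limits from counts cover counting error only.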

Additional observations from a re-analysis of the deposited data

Results flagged for a closer look

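Within the jejunum diet groups, 4 libraries stood apart from the rest of their group in a member, by the gap to the nearest library as a share of the group's range. ATP2B1 stood at 2801 CPM in xylose library 4, against 1472 CPM in the next library. CALB1 stood at 13.4 CPM in xylose library 11, against 6.58 CPM in the next, and at 10.1 CPM in control library 11, against 4.17 CPM in the next. These 2 values rest on 19 and 16 counts, and the kidney markers summed to 97.9 and 37.3 CPM there, second of 10 and seventh of 9 in their groups. CYP27B1 stood at 3.25 CPM in control library 4, from 16 counts, against 6.98 CPM in the next. Groups of 12 or 11 libraries were not examined in this way. The check was made on 16 groups, and chance gives about 1 in 20. The part of other tissues' transcripts in the CALB1 values was not tested.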

How the results depend on the processing

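Of 384 values of members between tissues under other settings, 371 kept direction and call, 3 lost the call, 4 gained it and 6 turned; scaling by totals, given with the results, made 3 of the gains, 1 loss and 4 turns. The others were CYP27B1 for kidney over muscle, -0.0311 with all libraries kept and -0.17 in lane 8 alone, ATP2B1 for kidney over muscle, called at -1.06 with all libraries kept, and CALB1 in lane 7. The turns with totals were S100G for kidney over liver (0.66) and muscle (0.83), ATP2B1 for kidney over muscle (0.54) and CYP27B1 for jejunum over liver (0.51). With no minimum fold the counts were 4570 higher and 4567 lower for kidney over jejunum, 4627 and 3492 over liver, 5199 and 3948 over muscle, and 5035 and 4331 for jejunum over liver. With no filter on low counts 5333 genes were lower in kidney than jejunum, 3931 higher in kidney than liver, 6342 higher in jejunum than liver and 6791 higher in jejunum than muscle. Totals gave 6068 and 896 for kidney over liver, 8255 and 795 over muscle, 5132 and 1882 for jejunum over liver and 6870 and 1734 over muscle. Diet calls were 2 in muscle with DESeq2, 1 in muscle without the library richest in other tissues' markers, and 2, 887, 1 and 281 in kidney, jejunum, liver and muscle with recorded diets. Of 114 member values by diet none was called and 19 turned. With recorded diets these were CYP24A1 -0.12, CYP2R1 -0.38 and CALB1 -1.03 in kidney, VDR -0.54, CYP27B1 0.0137 and ATP2B1 -0.41 in jejunum, CYP2R1 -0.52, S100G -0.17 and ATP2B1 -0.0342 in liver, and CYP27B1 0.52 and ATP2B1 0.076 in muscle. S100G in jejunum was 0.0057 with DESeq2 size factors or test and 0.15 without the library richest in other markers, ATP2B1 in muscle 0.0033, 0.0044 and 0.0543 in the same settings, and with no lane term VDR in jejunum was -0.0079 and CYP27B1 in muscle 0.0298. The cause was not tested. Pathway counts without low genes, fits without the richest library and within lanes, for tissues, and recorded diets for members were added after seeing the data.

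Plate position is the only number libraries of different tissues share. Each of the 24 positions carries 1 diet. In all 6 pairs of tissues the median correlation of deviations at equal position (0.08 to 0.21) was above that at other positions (-0.01 to 0.04), and that of kidney with liver had most pairs over 0.1, 18 of 23. In none were all pairs over 0.1 (8 of 18 in jejunum with liver, 10 of 19 in kidney with jejunum), so positions were not taken as pairs. This rule does not settle whether libraries at equal position come from the same animal. With position as a replicate block, 2950 genes were higher and 2727 lower in kidney than jejunum, and the block changed no member's call between tissues. The difference in diet effect between kidney and jejunum was not fitted with the block.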
